A study of Mus musculus with 2 samples.

Results

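Sall4, Dnmt3l and Rif1 are genes best known from pluripotent and germ cells, and each was read here by 1 probe set in 2 cloned lines of mouse mesoangioblasts, D16 and D351. They are 3 of the 5928 genes that the array's annotation names singly, and they were chosen by their measured difference between the clones, so that difference is described and not tested. Mesoangioblasts are progenitor cells of embryonic vessel walls that can give rise to smooth muscle and other mesoderm. Both clones came from explanted dorsal aorta of C57BL6 embryos at embryonic day 9.5 and carry no stated genetic change or treatment. After 5 days the explants were dispersed and cloned over growth-arrested embryonic fibroblasts, a feeder layer, and then expanded on gelatin. Total RNA of each clone was hybridised to 1 murine U74 C array, so each line is a single clone read once, no value has an error and no comparison a replicate check.

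Sall4 is a zinc finger transcription factor that works beside Pou5f1 and Nanog in embryonic stem cells and can recruit the repressive NuRD complex. It is also needed for limb and heart development. Dnmt3l resembles the de novo DNA methyltransferases but has no catalytic activity of its own. It binds Dnmt3a and Dnmt3b and is required for imprints and transposon silencing in the germ line. Rif1 was first studied as a telomere protein of yeast. In mammals it sets the time at which chromosome domains replicate, through protein phosphatase 1, and acts with Trp53bp1 at broken DNA ends. Mouse embryonic stem cells and germ cells carry much of it, but dividing cells in general use it as well.

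Dnmt3l was the only gene of the 3 whose value lay at background in one clone, so the sequence before its first start site is shown. RefSeq's promoter table of build GRCm38.p6 held windows for 1 of the 3 genes, Dnmt3l, with 3 start sites. The 250 bases before the first start lie at chr10:78042037-78042286 on the plus strand. They are given 5′ to 3′ with each CpG, the pair of bases that DNA methyltransferases modify, in capitals.
Dnmt3l: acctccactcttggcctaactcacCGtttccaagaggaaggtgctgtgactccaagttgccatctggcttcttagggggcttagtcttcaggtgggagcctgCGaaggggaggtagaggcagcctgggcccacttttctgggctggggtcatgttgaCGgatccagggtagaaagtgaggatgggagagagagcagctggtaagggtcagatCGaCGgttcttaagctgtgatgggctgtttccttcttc

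This window holds 5 CpGs, and those before the other start sites hold 4 and 3. Over 32851 windows of 250 bases in the table the median was 6, and 44.4% held fewer than 5. The motif CG, which reads the same on both strands, occurred in 92.1% of all windows. The GC box GGGCGG was searched on both strands and was absent from the first and the third Dnmt3l window and present in the second, as it was in 32.7% of all windows. The octamer ATGCAAAT, a sequence that POU factors such as Pou5f1 can bind, was searched likewise and was in none of the 3 windows, against 1.60% of all. The E-box CACGTG was in the second window alone, as in 6.02% of all windows. The TATA box TATAAA was in none of the 3, against 12.4% of all. The arrays give no reading of which start site was used or of DNA methylation. The presence or absence of a motif says only whether these letters are in the window.

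Sall4 was read by probe set 169650_r_at, which gave 73.7 in D16 and 24.5 in D351. These are linear intensities as deposited. The D16 value was 3.01-fold higher, a log2 ratio of 1.59, where every log2 ratio is D16 minus D351 and a positive value means higher in D16. Both values were above the floor of 6.4, the median of all values of the 2 arrays, and above the brightest of 38 negative control values, 11.2. In each clone Sall4 was among the brighter readings: its value exceeded 91.6% of all probe sets in D16 and 77.5% in D351. The r in the probe set's name marks probes picked under relaxed rules, so this reading is less certain to be of Sall4 alone than that of an unmarked probe set.

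Dnmt3l was read by probe set 168155_f_at, with 21.8 in D16 and 3.7 in D351. The D351 value was below the floor and within the range of the negative controls, so it is called dim and only a bound is available. Raised to the floor, it gave a ratio of at least 3.41-fold, or at least 1.77 on the log2 scale. The D16 value exceeded 76.3% of probe sets on its array. A higher floor of 20.7, the 75th percentile, was tried as well, and with it the bound was 1.05-fold and no longer passed 2-fold. The f in the name marks probes shared within a family of similar sequences, and what else they could bind was not tested.

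Rif1 was read by probe set 131411_at, the only unmarked one of the 3, with 47.3 in D16 and 18.6 in D351. D16 was 2.54-fold higher, a log2 ratio of 1.35. Both values were above the negative controls, at levels that exceeded 87.4% of probe sets in D16 and 72.7% in D351. With the floor at 20.7 the D351 value became dim and the difference at least 2.29-fold.

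**Figure D1:**
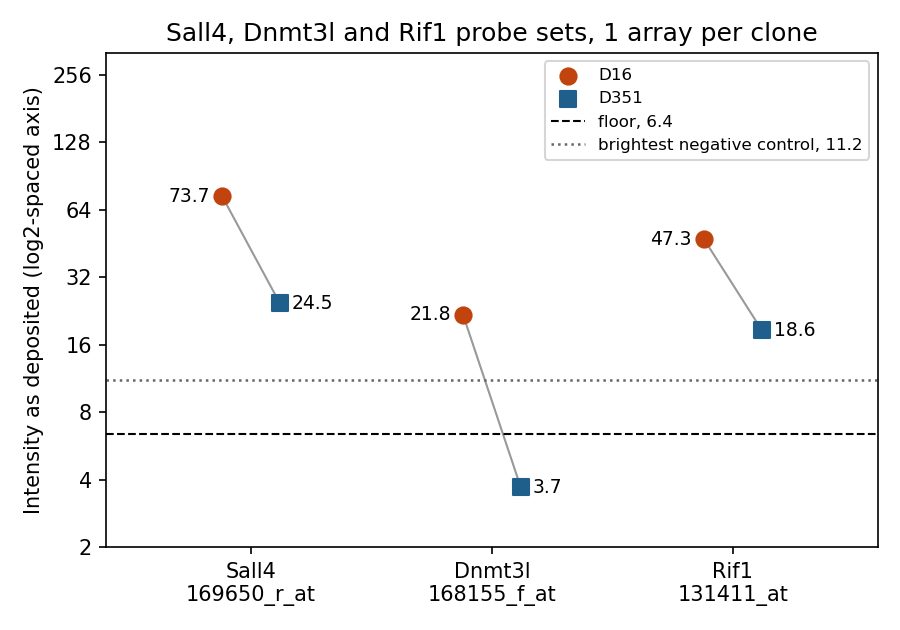
Intensity as deposited (log2-spaced vertical axis) of the probe sets of Sall4, Dnmt3l and Rif1 in clone D16 (circles) and clone D351 (squares), 1 array each, with the floor of 6.4 (dashed) and the brightest negative control, 11.2 (dotted). In all 3 genes the D16 value is the higher, and only the D351 value of Dnmt3l, 3.7, lies below the floor.

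All 3 genes were thus at least 2-fold higher in D16, which is what they were chosen on. Of 6828 probe sets above the floor in at least 1 clone, here called measured, 666 (9.75%) passed 2-fold towards D16 and 665 (9.74%) towards D351. By gene, each represented by its brightest probe set, the shares were 403 (10.2%) and 404 (10.3%) of 3934. At 3-fold, 217 probe sets passed towards D16 and 279 towards D351. Among measured probe sets within 0.5 log2 of the brightness of Sall4, 90 of 973 (9.25%) were at least 2-fold higher in D16. Around Rif1 they were 118 of 1258 (9.38%), and around Dnmt3l, near the floor, 330 of 2109 (15.6%). By mark, 91 of 971 measured probe sets with r, 93 of 783 with f and 409 of 4335 without a mark were at least 2-fold higher in D16.

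**Figure D2:**
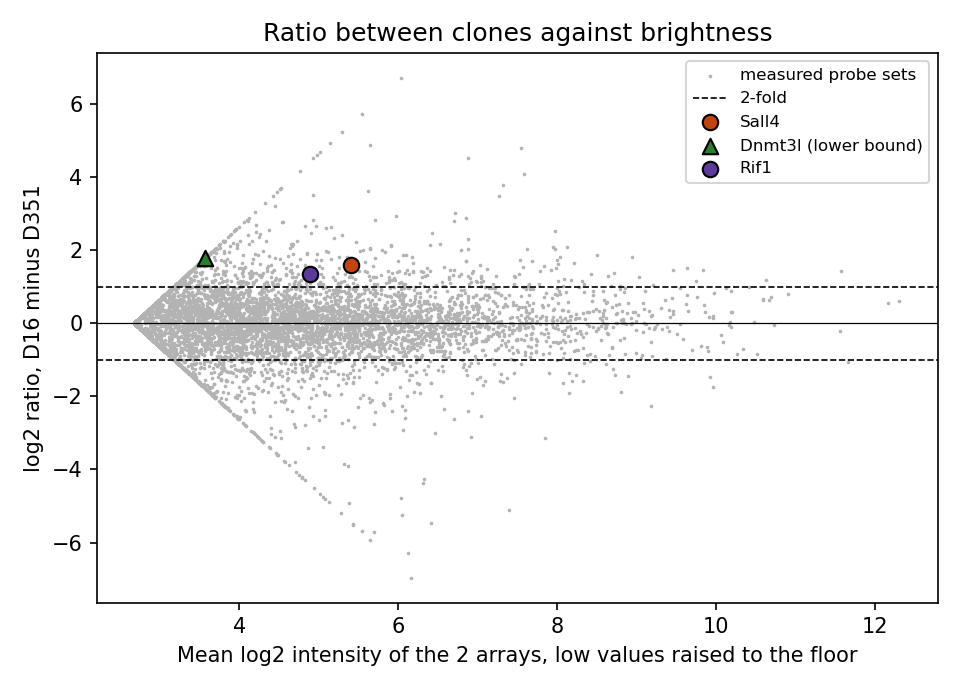
Log2 ratio, D16 minus D351, against the mean log2 intensity of the 2 arrays for all 6828 measured probe sets (grey), with Sall4, Rif1 (circles) and Dnmt3l (triangle, a lower bound) and the 2-fold limits (dashed). Sall4 (1.59), Dnmt3l (1.77) and Rif1 (1.35) lie above the upper limit, within the cloud of other probe sets that do.

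No gene of the 3 had another probe set to check it. For a guide, 409 other genes had several probe sets above the floor on each array, and their brightest pairs scattered with an SD of 0.67 log2 per probe set. This SD describes how far 2 probe sets of a gene differ on the same 2 arrays, and it is not the spread between replicates. What makes such probe sets differ was not tested. Since the 3 genes were chosen on their ratios, setting those ratios against this SD tests nothing. The 9 spike-in hybridization controls were brighter in D16, by 1.59-fold in the median. Scaled to them, Sall4 was 1.89-fold and Rif1 1.59-fold higher in D16, both under 2-fold, and the median of all measured genes moved from 0.022 to -0.59. The Dnmt3l bound stayed at 3.41-fold, because its D351 value was still dim. With that scaling 290 probe sets passed 2-fold towards D16 and 2054 towards D351, so that 12.4% of the calls in either direction were towards D16, against 50.04% without it. By gene, 170 of 4226 measured genes then passed towards D16 and 1192 towards D351.

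By their brightest probe sets, the other measured genes of the pluripotency network list were not higher in D16. Sall4, Dnmt3l and Rif1 were chosen for being higher there, so this contrast is partly fixed by the choice and tests nothing. Of 56 genes on this list, 20 had a probe set of their own and 13 were measured, among them the 3 themselves. Of the remaining 10, none passed 2-fold towards D16 and 1 did towards D351, beside 10.2% and 10.3% of all measured genes. All 10 had a log2 ratio below 0, with a median of -0.65 against 0.022 over all measured genes. Some lay near the floor, such as Trim71 (1.5 in D16 and 9 in D351) and Tet1 (5.1 and 9.8). With the mean over a gene's probe sets in place of the brightest, 9 of 10 were below 0. The second probe set of Epcam leaned the other way, at 39.6 in D16 and 28.5 in D351. On the scale of the hybridization controls none of 12 measured passed 2-fold towards D16 and 8 did towards D351. Over all 4226 genes measured on that scale, 170 passed towards D16 and 1192 towards D351. The 1 gene past 2-fold was Eras, a Ras-like gene of embryonic stem cells, at 8.5 in D16 and 22 in D351, a ratio of 2.59-fold towards D351. Its D16 value was within the range of the negative controls. The count of 1 became 2 after quantile normalization or lowess centring. With the floor at the 25th percentile it was 4 of 16 measured, beside 761 of 5209 measured genes. It became 0 with the floor at 20.7, a pseudocount, the 3-fold rule or unmarked probe sets alone. Il6st, the signalling chain of the receptor for leukaemia inhibitory factor, stood at 204 in D16 and 400.1 in D351, and Stat3, the transcription factor it activates, at 24.1 and 43.6. Tbx3 stood at 23.6 in D16 and 46.5 in D351, and Jarid2, a partner of Polycomb complex 2, at 85.5 and 138. All of these were under 2-fold, though Il6st (1.96-fold) and Tbx3 (1.97-fold) only just. Lefty1, a Nodal antagonist, read nearly alike at 189 in D16 and 196 in D351, by a probe set marked r, while its other probe set was dim in both clones.

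The defining markers of pluripotent cells that were read lay at or near background. Pou5f1, the central factor of the network, read 1.2 in D16 and 3.0 in D351, and Esrrb 3.7 and 1.9. Utf1 read 8.9 and 9.9 by its brighter probe set and 2.7 and 12.4 by the other. Of the 9 embryonic stem cell markers on the list these 3 had probe sets, with a summed level of 13.8 in D16 and 14.8 in D351, and the others were not analysed here. Lin28a, an RNA-binding protein of early embryonic cells, was dim in both clones at 2.9 and 4.9. The name pluripotency genes therefore holds for where Sall4, Dnmt3l and Rif1 are best known, while the defining markers measured beside them were low in both clones. No gene of these lists read exactly 0.

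Of 51 on the list of germ cell and piRNA genes, 16 had a probe set and 11 were measured, including Sall4 and Dnmt3l. Of the other 9, 1 passed 2-fold towards D16 and none towards D351, beside 10.2% and 10.3% of all measured genes, and the median log2 ratio was -0.18. Scaled to the hybridization controls none passed towards D16 and 3 did towards D351, beside 170 and 1192 of 4226 measured genes, and the median was -0.85. The 1 gene past 2-fold was Tdrd12, a Tudor protein of the piRNA pathway that, like Dnmt3l, serves transposon silencing in the male germ line. It read 17.6 in D16 and 6.4 in D351, which is the floor, so that D16 was at least 2.75-fold higher, and its second probe set was dim in both clones. The call was lost with the floor at 20.7, where Tdrd12 was dim in both clones, with a pseudocount and with scaling to the hybridization controls.

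Of the defining germ line markers only Ddx4 was measured, and it did not differ by 2-fold. Ddx4, the Vasa helicase, read 25.7 in D16 and 27.7 in D351 by a marked probe set. Piwil2 read 1.5 and 1.1 and Sycp3 5.6 and 4.9, dim in both clones. These 3 of 8 markers had a summed level of 32.8 in D16 and 33.7 in D351. Mov10l1, a helicase of piRNA production, stood at 46.0 and 52.1, and Tdrkh, another Tudor protein, at 33.2 and 55.4, both under 2-fold. Of 36 meiosis genes 15 had a probe set and 7 were measured. None of the 7 passed 2-fold in either direction, beside 10.2% towards D16 and 10.3% towards D351 of all measured genes. On this scale 170 of 4226 measured genes passed towards D16 and 1192 towards D351. As deposited, the brightest meiosis genes were the cohesin subunit Rec8, at 80.8 and 70.1, and Spo11, at 55.2 and 30.8. Spo11 makes the breaks of meiotic recombination.

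**Figure D3:**
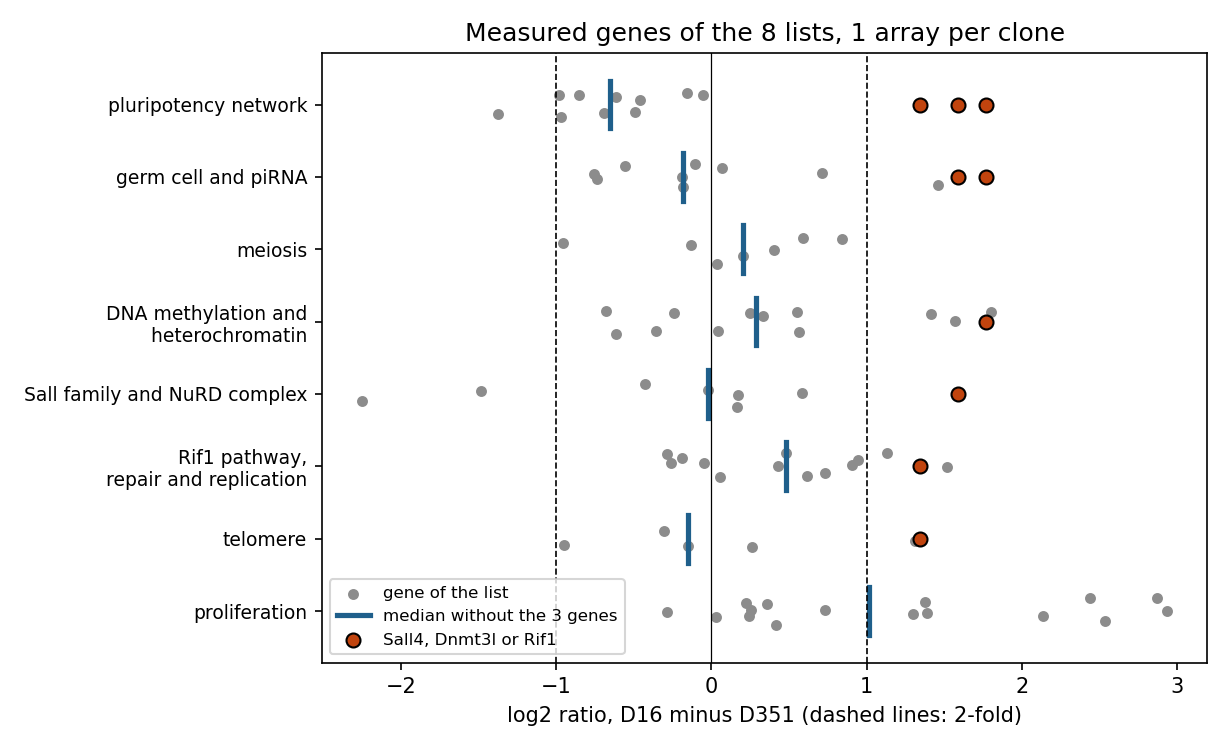
Log2 ratio, D16 minus D351, of every measured gene of the 8 lists (grey points, 1 per gene), with Sall4, Dnmt3l and Rif1 in colour, the median of each list without them as a bar, and the 2-fold limits dashed; the vertical spread within a list only separates the points. In the pluripotency list the other 10 genes all lie below 0 (median -0.65), while the proliferation list lies mostly above 0 (median 1.01).

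Of 53 genes of DNA methylation and heterochromatin, the list that holds Dnmt3l, 16 had a probe set and 13 were measured. Without Dnmt3l, 3 of 12 passed 2-fold towards D16 and none towards D351, beside 10.2% and 10.3% of all measured genes, and the median log2 ratio was 0.29. Scaled to the hybridization controls the counts were 2 and 3, beside 170 and 1192 of 4226 measured genes, and the median -0.23. Nsd2, which methylates histone H3 on lysine 36, stood at 135 in D16 and 38.7 in D351, a ratio of 3.49-fold towards D16. Uhrf1, which brings Dnmt1 to newly copied DNA, stood at 33.4 and 12.5, a ratio of 2.67-fold towards D16 by a probe set marked f. Suv39h2, a methyltransferase of histone H3 on lysine 9 that is abundant in testis, stood at 19.0 in D16 and was dim in D351 at 4.1, at least 2.97-fold higher, and like Dnmt3l it was near the floor.

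The catalytic partner of Dnmt3l was at background. Dnmt3a read 1.9 in D16 and 0.7 in D351 by a probe set marked r, dim in both clones, and Dnmt3b was not analysed here. Tet1, which starts the removal of methyl groups, was dim in D16 at 5.1 and stood at 9.8 in D351, within the range of the negative controls. Trim28, the corepressor of KRAB zinc finger proteins, was bright at 574 in D16 and 392 in D351, under 2-fold, and its second probe set leaned the other way at 18.7 and 22.7.

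The relatives of Sall4 were dim. Sall1 read 0.4 in D16 and 3.9 in D351 and Sall2 4.8 and 0.6, dim in both clones, so Sall4 was the only measured member of its family among the 3 with a probe set. On the list of the Sall family, NuRD and related genes, 7 genes other than Sall4 were measured. None passed 2-fold towards D16 and 2 did towards D351, beside 10.2% and 10.3% of all measured genes. The median log2 ratio was -0.024, and 0.027 after quantile normalization. On the scale of the hybridization controls it was -0.70, and 3 of 7 passed towards D351, beside 1192 of 4226 measured genes. Tbx5, a T-box factor that acts with Sall4 in limb and heart, stood at 10.1 in D16 and 28.3 in D351, a ratio of 2.80-fold towards D351, with its D16 value within the range of the negative controls. Fgf10, a limb growth factor, stood at 25.8 and 123, a ratio of 4.76-fold towards D351, and at 17.9 and 28.6 by its second probe set. Fgf10 is also on the list of fibroblast markers used here, and which cells its signal came from was not tested. Under 2-fold were Spry4, a feedback inhibitor of FGF signalling (21.7 and 14.5), the zinc finger gene Plagl1 (263 and 234) and Gli3, a factor of hedgehog signalling (176 and 237). Chd5 and Mta3, the NuRD genes measured, read 23.8 and 24.2, and 24.2 and 21.5.

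Of 49 genes of the Rif1 pathway, break repair and replication, 17 had a probe set and 14 were measured, among them Rif1 itself. Without it, 2 of 13 passed 2-fold towards D16 and none towards D351, beside 10.2% and 10.3% of all measured genes. A further count is of sign alone: 9 of 13 had a log2 ratio above 0, with a median of 0.48. On the scale of the hybridization controls none passed 2-fold in either direction, with a median of -0.054. Over all 4226 genes measured on that scale, 170 passed towards D16 and 1192 towards D351. Orc3, a subunit of the origin recognition complex, stood at 69.4 in D16 and 24.2 in D351, a ratio of 2.87-fold towards D16, and its second probe set read 11.4 and 7.1. Mcm10, which helps start replication forks, stood at 18.6 and 8.5, past 2-fold, but the D351 value was no brighter than negative controls reached, and its second probe set read 11.7 and 10.1. Cdc45, part of the replicative helicase, stood at 33.6 and 17.9, under 2-fold. Others were a little higher in D351, also under 2-fold: the helicase subunit Mcm5 (252 and 261), Orc4 (57.2 and 68.5) and Rmi1 (114 and 139), which works with the Blm helicase.

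The direct partners of Rif1 were only in part measured. Ppp1ca, a catalytic subunit of protein phosphatase 1, was bright at 815 in D16 and 530.4 in D351, under 2-fold. Ppp1cc, another such subunit, was dim in D16 at 4.6 and read 7.3 in D351, within the range of the negative controls. Trp53bp1, through which Rif1 is brought to breaks, read 0.6 in D16 and 0.5 in D351, and Shld1, a subunit of the shieldin complex, 6.3 and 1.7, both dim in each clone. Of the telomere list 10 of 29 genes had a probe set and 6 were measured. Without Rif1, 1 of 5 was at least 2-fold higher in D16, beside 10.2% of all measured genes, with a list median of -0.15. That gene was Rtel1, a helicase of telomeres and replication forks, at 86.8 in D16 and 34.9 in D351, a ratio of 2.49-fold towards D16 and under 2-fold when scaled to the hybridization controls. The shelterin gene Terf2 read 20.9 and 25.8.

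Among genes of proliferation, those past 2-fold were higher in D16, as Sall4, Dnmt3l and Rif1 were. Of 16 measured genes among 50 on the list, 8 passed 2-fold towards D16 and none towards D351, and 15 of 16 were above 0, with a median of 1.01. Beside them stand 10.2% and 10.3% of all measured genes. With unmarked probe sets alone 3 of 6 passed towards D16, beside 254 of the 2524 genes measured that way. Stil was 7.66-fold and Ccnd1 7.32-fold higher in D16. Dut read 49.9 in D16 and 8.6 in D351 and Cenpn 44.4 and 8.2, where the D351 values were no brighter than negative controls reached. Scaled to the hybridization controls, 5 passed 2-fold towards D16, none towards D351, and the median was 0.34. On that scale 170 of 4226 measured genes passed towards D16 and 1192 towards D351. The summed level over the 19 with a probe set was 1458 in D16 and 633 in D351. The part of proliferation in the values of Sall4, Dnmt3l and Rif1 was not tested. In RNA from a whole culture, fewer cells with a transcript and less of it per cell cannot be told apart.

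All 4 measured fibroblast markers, Mfap5, Fgf10, Col5a1 and Loxl1, passed 2-fold towards D351, beside 10.3% of all measured genes. By their brightest probe sets they were at least 3.19-fold higher there, with values from 25.8 to 543 in D16 and 123 to 1838 in D351. Their summed level was 654 in D16 and 2355 in D351. Of 5 smooth muscle markers, 4 passed 2-fold towards D351 and 1, Flnc, towards D16, beside 10.3% and 10.2% of all measured genes. Their summed level was 2494 in D16 and 2136 in D351, most of the D16 sum being Flnc, at 2384.6 and 1048.4 by a probe set marked r. The other 4 were Lmod1 (2.6 in D16 and 288.2 in D351), Itga8 (77.6 and 678.3), Synpo2 (24.7 and 105.2) and Acta2 (4.7 and 15.4). The part of fibroblast and smooth muscle markers in the lower D351 values of the 3 genes was not tested. Of the 12 mesoangioblast and vessel progenitor markers 3 had probe sets. Itgb1 read 124 in D16 and 131 in D351 and Abcg2 77.0 and 46.9, while Kdr was dim in D16 at 1.6 and read 9.5 in D351. The summed level of the 3 was 203 in D16 and 188 in D351. Of 4 endothelial markers with a probe set 2 were measured, Egfl7 (19.5 and 3.8) and Flt1 (1.3 and 87.6), with a summed level of 24.7 in D16 and 93.2 in D351.

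Over all 8 lists, without Sall4, Dnmt3l and Rif1, 78 of 112 genes with a probe set were measured. Of these 15 (19.23%) passed 2-fold towards D16 and 3 (3.85%) towards D351, beside 10.2% and 10.3% of all measured genes. Of the 15, 8 were among the 16 measured genes of the proliferation list, and no other list gave more than 3. The median log2 ratio over the 78 was 0.17. Scaled to the hybridization controls the counts turned to 7 and 18, beside 170 and 1192 of 4226 measured genes.

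The genes nearest to each of the 3 in their pair of values were found by the distance between floored log2 intensities over the 2 arrays. For Sall4 they were Orc3 (69.4 in D16 and 24.2 in D351), Dtna (74.8 and 26.4) and Hectd3 (69.2 and 25.9), at distances of 0.089 to 0.12. For Rif1 they were Otub2 (45.4 and 19.0), Dusp22 (46.2 and 19.7) and Hspa4l (49.7 and 17.8), at 0.067 to 0.096. For Dnmt3l they were Gm33682 (22 and 4.0), Washc3 (22 and 5.9) and Abca8b (21.6 and 4.9), each at 0.013, a closeness that the floor gives because all were dim in D351. With 2 arrays such likeness rests on 2 values for each gene.

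Most of the genes read near the 3 on their chromosomes were dim in both clones or under 2-fold. Over all measured genes 10.2% passed 2-fold towards D16 and 10.3% towards D351. The 3 were chosen for being higher in D16 and these genes were not, so a contrast in direction tests nothing. For each of the 3, the 2 nearest genes with a probe set on either side were read, and they are named for their place alone. Other protein-coding genes lay between in most cases, up to 11 of them between Orc4 and Rif1. Near Sall4 on chromosome 2, Atp9a read 29.4 in D16 and 36.0 in D351 and Zfp217 78.4 and 114, both under 2-fold. Nfatc2 and Tshz2 were dim in both clones. Near Dnmt3l on chromosome 10, Aire was dim at 5.3 and 0.9. Lrrc3 read 7.0 in D16, no brighter than negative controls reached, and 16.8 in D351, a ratio of 2.4-fold towards D351. Agpat3 and Rrp1 there were under 2-fold. Near Rif1, also on chromosome 2, the predicted gene Gm13490 stood at 13.3 in D16 and was dim in D351 at 5.2. Its ratio was at least 2.08-fold towards D16, while Stam2 and Orc4 were under 2-fold and Cacnb4 was dim. Gene order was taken from assembly GRCm38.p6.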

How the data were processed

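The authors deposited 1 table of linear intensities, 1 value per probe set for each of 2 arrays. Which software and build made it is not given in the sources used here. Of 11934 probe sets, 66 controls were set aside. The mean over the middle values (2% trimmed at each end) was 20.01 on each array, and values were used as deposited. The array medians were 6.5 for D16 and 6.2 for D351.

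Low values were raised to a floor, the pooled median of 6.4, before log2 was taken. A gene with several probe sets was represented by its brightest. Names came from the platform annotation, with 7717 probe sets of a single gene, 150 of several and 4001 unnamed here. Of the 7717, 7677 had their gene identifier in RefSeq, GRCm38.p6. With 1 array per clone there was no test, and 2-fold served as a rule of size. The number of arrays limits the precision.

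From each of 8 gene lists up to 4 genes past 2-fold in each direction were named, or the 2 brightest where none passed. Genes given under 2-fold beside them, neighbours and marker genes were named after their values were seen, for their role or place. The genes and lists were chosen with earlier results of these data known. The alternatives were quantile normalization, lowess centring (span 0.3), equal medians, scaling to hybridization controls, floors at the 25th and 75th percentile, a pseudocount, a 3-fold rule, unmarked probe sets and the mean over probe sets. The computation ran in Python 3.11.15 (pandas 2.3.3, numpy 2.4.6, matplotlib 3.10.9, statsmodels 0.14.6, scipy 1.17.1).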

Additional observations from a re-analysis of the deposited data

How the results depend on the processing

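The log2 ratios of Sall4, Dnmt3l and Rif1 were above 0 under every alternative that gave a value, from 0.92 to 1.63 for Sall4, 0.075 to 2.56 for Dnmt3l and 0.67 to 1.38 for Rif1. They fell under 2-fold for Sall4 (0.92) and Rif1 (0.67) with scaling to the hybridization controls, and for Dnmt3l (0.075) with the floor at the 75th percentile. Rif1 (1.35) did not reach 3-fold. Sall4 and Dnmt3l had no unmarked probe set, so that alternative gave no value for them.

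The counts below are those past 2-fold towards D16 and towards D351. Scaling to the hybridization controls gave 290 and 2054 probe sets, 170 and 1192 genes, and 7 and 18 genes of the 8 lists without the 3. The floor at the 25th percentile gave 1685 and 1504 probe sets, 815 and 761 genes, and 8 list genes higher in D351. The floor at the 75th percentile gave 261 and 260 probe sets, 195 and 185 genes, and 1 list gene higher in D351. The 3-fold rule gave 217 and 279 probe sets, 140 and 180 genes, and 6 and 1 list genes. Unmarked probe sets alone gave 409 and 429 probe sets, 254 and 265 genes, and 9 list genes higher in D16; fewer were counted. Under the other alternatives these counts lay within 1.5 times the values reported. The cause of the shift with the hybridization controls was not tested. Of 160 counts for single lists, 126 lay within 1.5 times. Many of these were counts of 0 that stayed 0, the only way a 0 could pass, and under the 3-fold rule none could rise. Among list counts that were not 0, agreement ran from 2 of 10 alternatives (pluripotency network, towards D351) to 8 of 10 (such as telomere, towards D16). No paired analysis was possible because each clone has 1 array. Values near 6.4 to 11.2, the range shared with negative controls, carry little order.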
